A study of Mus musculus with 2 samples.

Results

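The genes for the proteins of the cytosolic ribosome were examined in the accessible chromatin of inflammation-experienced regulatory T (Treg) cells of the mouse. Members were the protein-coding genes of the GENCODE M21 annotation named Rpl or Rps with a number (with a final a, x, y or l allowed), the stalk genes Rplp0, Rplp1 and Rplp2, and Rpsa. The rule used symbols only and no measured value. It gave 80 genes of 21853 protein-coding genes, 49 for the large subunit and 31 for the small subunit, on 19 chromosomes. ATAC-seq, in which the Tn5 transposase cuts and tags open DNA, had been run on primary Treg cells of a male adult mouse, 6 months old and of strain Foxp3CreERT2 x Rosa26YFP, which the labels trace to a bone marrow hematopoietic cell. That strain joins an inducible Cre recombinase, placed under the control of the Treg factor Foxp3, with a Cre-dependent yellow fluorescent reporter. The labels list 2 libraries, technical replicates of 1 biological replicate, and do not say which inflammation the cells had met or how they were isolated. The deposited lists of accessible regions are taken to pool both libraries, so values by library and spread between mice were not available, no test was made, and every comparison is a description of 1 donor.

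A region is a run of overlapping or touching peaks in the deposited list that passed a threshold on irreproducible discovery rate (IDR), and its height is the greatest fold enrichment over background, a linear ratio given by the authors. A gene has a promoter region if a region reaches within 1000 bp of at least 1 start of its coding transcripts. Distances are signed in the direction of transcription, negative upstream, and positions are mm10 (GRCm38). The list held 29415 regions on the assembled chromosomes. The sequencing depth is unknown. Of markers of the labelled cell, 4 of 5 Treg genes had a promoter region (Foxp3 with a fold of 9.62, Il2ra with 10.998, Ctla4 with 6.20 and Ikzf2 with 4.92; Tnfrsf18 had none but 5 regions were assigned to it). So did 5 of 6 T cell genes, 1 of 4 CD8 and NK genes, 1 of 4 B cell genes, 0 of 4 myeloid genes and 2 of 3 erythroid genes. Cd4 was the T cell gene without a promoter region, and Cd8b1, Pax5, Klf1 and Epor were the genes of other lineages with one.

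Ribosomal proteins fold and hold the ribosomal RNA of both subunits, and each ribosome takes up a single copy of almost every one of them, so their genes are active together in every growing cell. Their transcripts carry a run of C and T at the very start of the message, the terminal oligopyrimidine tract, through which the kinase mTORC1 couples their translation to nutrients and growth signals. T cells enlarge their ribosome pool on activation, and mTORC1 activity is known to be important for Treg function. In mammals most of these genes have a CpG-rich promoter without a canonical TATA box, and several have close paralogs that are used in muscle or germ cells.

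Features of the reference sequence recur in the results: a pyrimidine run near the start, and a short set of motifs just upstream of it. The pyrimidine runs of 5 members with an accessible promoter come first, followed by Rpl13, whose region missed the IDR threshold, and by 3 members with no region in any deposited list. Each line gives 30 bases of the sense strand (mm10) with the run in capitals from base 16 on.
Rps6, chr4:86857354-86857383, minus strand: taagcggaagtcgggCCTCTTTTTCgtgac
Rps24, chr14:24490701-24490730, plus strand: gtcggcagtgagcggTCCTCTTTTCCTCCT
Rpl4, chr9:64173398-64173427, plus strand: tagagaggagcgtggCCTTCTCCTCTCCCC
Rpl7a, chr2:26910778-26910807, plus strand: acttatcccccacaaTTCCCTCTTCTTTCT
Rpl11, chr4:136053366-136053395, minus strand: ccacggggccggaagTCTCCCTCTCTCTTC
Rpl13, chr8:123102319-123102348, plus strand: gttcgcgtgacgtcaCTTCCCTTTCgcctg
Rpl3l, chr17:24727842-24727871, plus strand: tgcctggtggggaggCCCCTTCCTaacctg
Rpl10l, chr12:66284397-66284426, minus strand: gtaacagaaatttggCCTCCattttgcggc
Rpl39l, chr16:10170206-10170235, plus strand: tccctagctcccaggCCTTTCCggatttcc

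The next lines give the 220 bases from 200 bases upstream of the principal GENCODE start to 20 bases from it on, for 4 members. They are the member with the highest promoter region (Rpl11) and 3 members that share a sequence bound by the factor BANP. Capitals mark matches to the motifs of BANP (TCTCGCGA), of the ETS family (CCGGAA) and of ZNF143 (ACTACAA), on either strand.
Rpl11, chr4:136053374-136053593, minus strand: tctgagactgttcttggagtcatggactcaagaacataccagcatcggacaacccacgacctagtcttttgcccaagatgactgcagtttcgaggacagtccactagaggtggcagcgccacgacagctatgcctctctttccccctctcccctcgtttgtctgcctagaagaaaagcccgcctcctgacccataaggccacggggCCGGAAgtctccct
Rps6, chr4:86857393-86857612, minus strand: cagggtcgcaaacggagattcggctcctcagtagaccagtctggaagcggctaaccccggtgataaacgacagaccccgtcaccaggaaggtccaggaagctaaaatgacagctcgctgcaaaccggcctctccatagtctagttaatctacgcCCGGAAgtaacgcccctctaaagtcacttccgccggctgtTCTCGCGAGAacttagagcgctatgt
Rpl26, chr11:68901383-68901602, plus strand: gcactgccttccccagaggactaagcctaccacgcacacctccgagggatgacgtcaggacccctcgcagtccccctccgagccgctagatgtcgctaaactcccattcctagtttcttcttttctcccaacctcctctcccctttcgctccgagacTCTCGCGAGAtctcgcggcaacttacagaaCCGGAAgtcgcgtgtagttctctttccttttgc
Rpl10a, chr17:28328368-28328587, plus strand: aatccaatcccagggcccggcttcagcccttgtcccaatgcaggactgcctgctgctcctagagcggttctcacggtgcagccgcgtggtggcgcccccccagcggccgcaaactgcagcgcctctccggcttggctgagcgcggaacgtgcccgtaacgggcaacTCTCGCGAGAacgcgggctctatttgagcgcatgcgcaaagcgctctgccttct

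Accessible chromatin marked the promoters of nearly the whole set. Of the 80 ribosomal protein genes, 76 (95%) had a promoter region, against 10861 of all 21853 protein-coding genes (49.7%). All 31 small-subunit genes and 45 of the 49 large-subunit genes had one. The set is rich in CpG, with a median CpG observed over expected ratio of 0.812 around the principal start against 0.571 for all coding genes. Among genes with a ratio of at least 0.6, a promoter region was called at 74 of 76 ribosomal protein genes (97.4%) and at 8245 of 10360 coding genes (79.6%). The 2 members open below that ratio were Rpl18, with 0.553, and Rps4x, with 0.507.

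The heights of these promoter regions lay in the middle of those of accessible promoters and were less spread. The median fold was 18.1 (interquartile range 15.3 to 20.99) at the 76 members, against 16.4 (interquartile range 12.4 to 20.5) at all 10861 accessible coding promoters. Of the 76, 46 lay above the median of all accessible promoters, 48 lay in its middle 50%, 7 in its upper 10% and 2 in its lower 10%. The interquartile range was 0.316 of the median at the members and 0.491 at all accessible promoters. A spread of like size was not particular to the members. The proteasome genes had an interquartile range of 15.5 to 22.3 about a median of 21.1, and ribosome assembly genes 15.7 to 21.5 about 18.3. The mitochondrial ribosomal genes were more spread, with 14.7 to 22.4 about 18.9. The median −log10 p was 258 at the members and 204 at all accessible promoters. Large-subunit and small-subunit genes had median folds of 18.04 and 18.16, a difference far inside the spread of either set. Fold was nearly unrelated to CpG ratio (Spearman rho 0.171) and to gene length (rho −0.02) across the 76 promoters, which share 1 pooled set of reads.

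**Figure D1:**
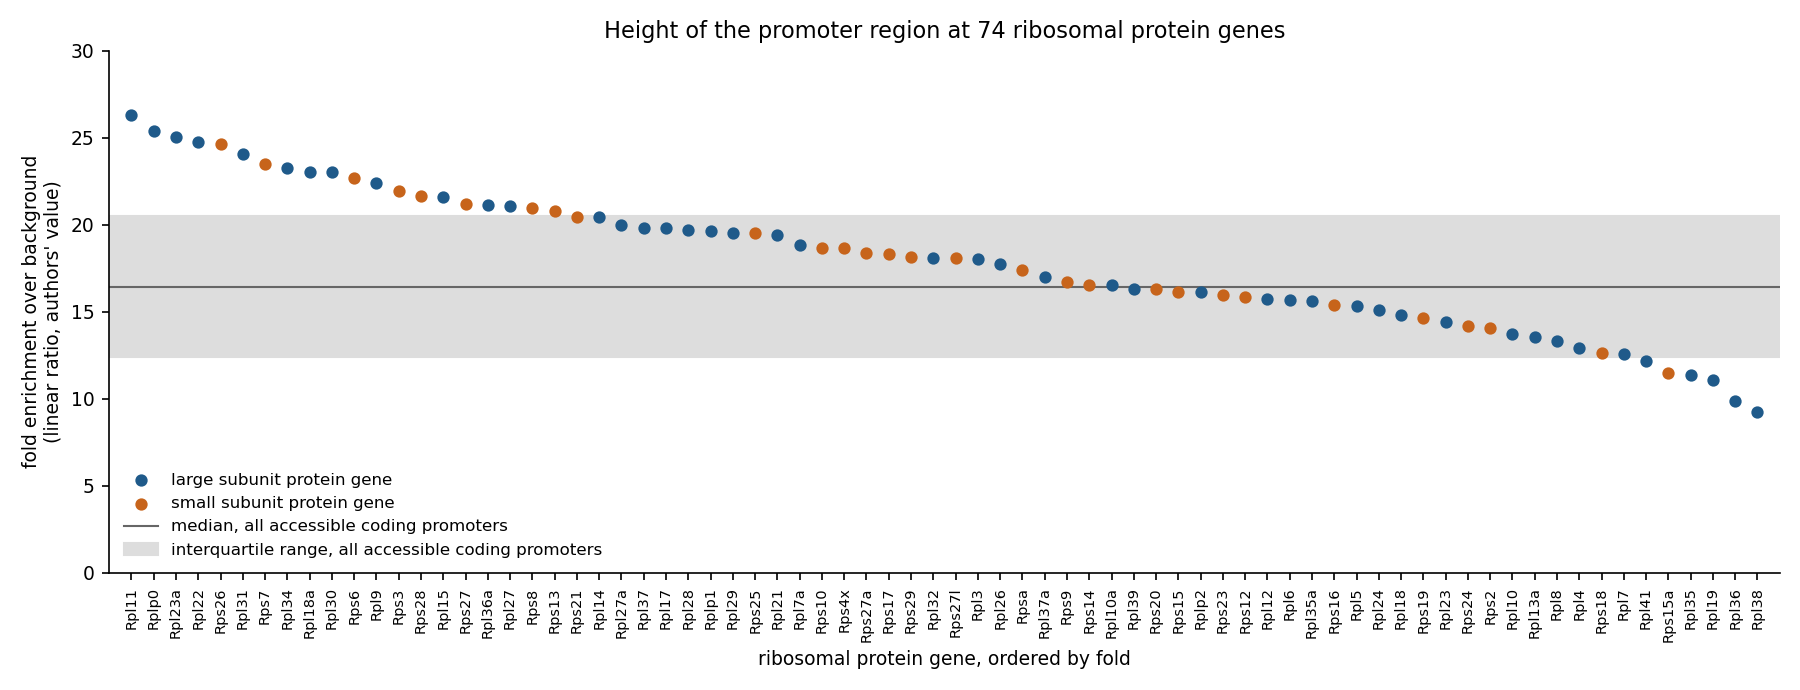
Fold enrichment over background (authors' linear ratio, y axis) of the highest promoter region of 74 of the 76 ribosomal protein genes with one, ordered by fold (x axis). Blue dots are large-subunit genes and orange dots small-subunit genes. The grey band is the interquartile range (12.4 to 20.5) and the line the median (16.4) of all 10861 accessible coding promoters. The genes plotted run from 26.3 at Rpl11 to 9.24 at Rpl38. The subunits are mixed over most of the range, with large-subunit genes at both ends.

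The highest promoter regions belonged to proteins of several roles. Rpl11, which with Rpl5 and the 5S ribosomal RNA forms a particle that joins the large subunit and can also bind the p53 regulator Mdm2, had the highest with a fold of 26.3, at the 96.1 percentile of accessible promoters. Rplp0, the base of the stalk that recruits translation factors, followed with 25.4. Rpl23a, near the exit of the peptide tunnel, had 25.04 and Rpl22 had 24.7. Rpl22 binds RNA, is dispensable for the ribosome itself and is needed in the mouse for the development of alpha-beta T cells. Rps26 at 24.6 and Rpl31 at 24.1 were also in the upper 10%.

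Among the lowest regions were those of Rpl38 (fold 9.24), Rpl36 (9.87), Rpl19 (11.1) and Rpl35 (11.4). Low fold did not go with weak evidence in every case: Rpl35 had a −log10 p of 292, while Rpl38 had 65.9 and Rpl19 78.1. Rpl38, which in the mouse is known for a role in the translation of Hox messages, was the lowest of the 76 by −log10 p. It was covered by 2 separate regions, one with its summit at −3 bp and a fold of 8.65, and one with its summit at 504 bp and a fold of 9.24.

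The stalk proteins did not share a height. Rplp0 had a fold of 25.4, Rplp1 19.6 and Rplp2 16.15. The partners of the 5S particle also differed, with 26.3 at Rpl11 and 15.3 at Rpl5. Rps6, the substrate of the S6 kinases that act below mTORC1, had a fold of 22.7 and the greatest −log10 p of the set, 621. Rpsa, also known as the laminin receptor, had 17.4. Rps27a, which is made as a fusion with ubiquitin, had 18.4. Rps3, which also takes part in DNA repair and in DNA binding by NF-kB, had 21.9. Rps19, the gene most often mutated in human Diamond-Blackfan anaemia, had 14.7. These differences have no replicate behind them, and a difference between genes in fold is a difference in accessibility signal only.

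The ranked list gave the −log10 p of each peak in each of the 2 read sets it compares, and what these sets hold is not stated. Over the 76 members and Rpl13, the ratio of the first set to the second had a median of 1.02 (interquartile range 0.909 to 1.14), and 74 of 77 lay within 1.5-fold. The exceptions, named after their values were seen, were Rpl4 with 65.5 in the first set and 33.0 in the second, Rps4x with 108 and 62.0, and Rps25 with 154 and 92.2. All 3 were higher in the first set. The median IDR of the highest peak at the 76 members was 4.2e-04.

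Promoter regions at the members were about as wide as others but placed more closely on the start. Their median width was 942 bp, against 948 bp at all accessible coding promoters. The region covered the principal start at 74 of 76 members (97.4%) and at 84.8% of accessible coding genes. The highest summit lay within 100 bp of a start of the gene at 61 members (80.3%) and at 65.3% of accessible coding genes. Its median position was −19.5 bp at the members and −40 bp at all accessible promoters. Some like sets had a median position as near to the start, with −17.5 bp at the mitochondrial ribosomal genes and −9.5 bp at the ribosomal genes outside the symbol rule. Others had one farther upstream, with −30 bp at initiation and elongation factors, −37 bp at proteasome genes and −42 bp at ribosome assembly genes. These are medians of signed positions, so they do not show how tightly summits gather at the start. The highest summit lay upstream at 51 members, downstream at 24 and on the start at Rps13. More than 1 summit had been called in 74 of the 76 regions (97.4%) and in 83.9% of all accessible promoters.

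**Figure D2:**
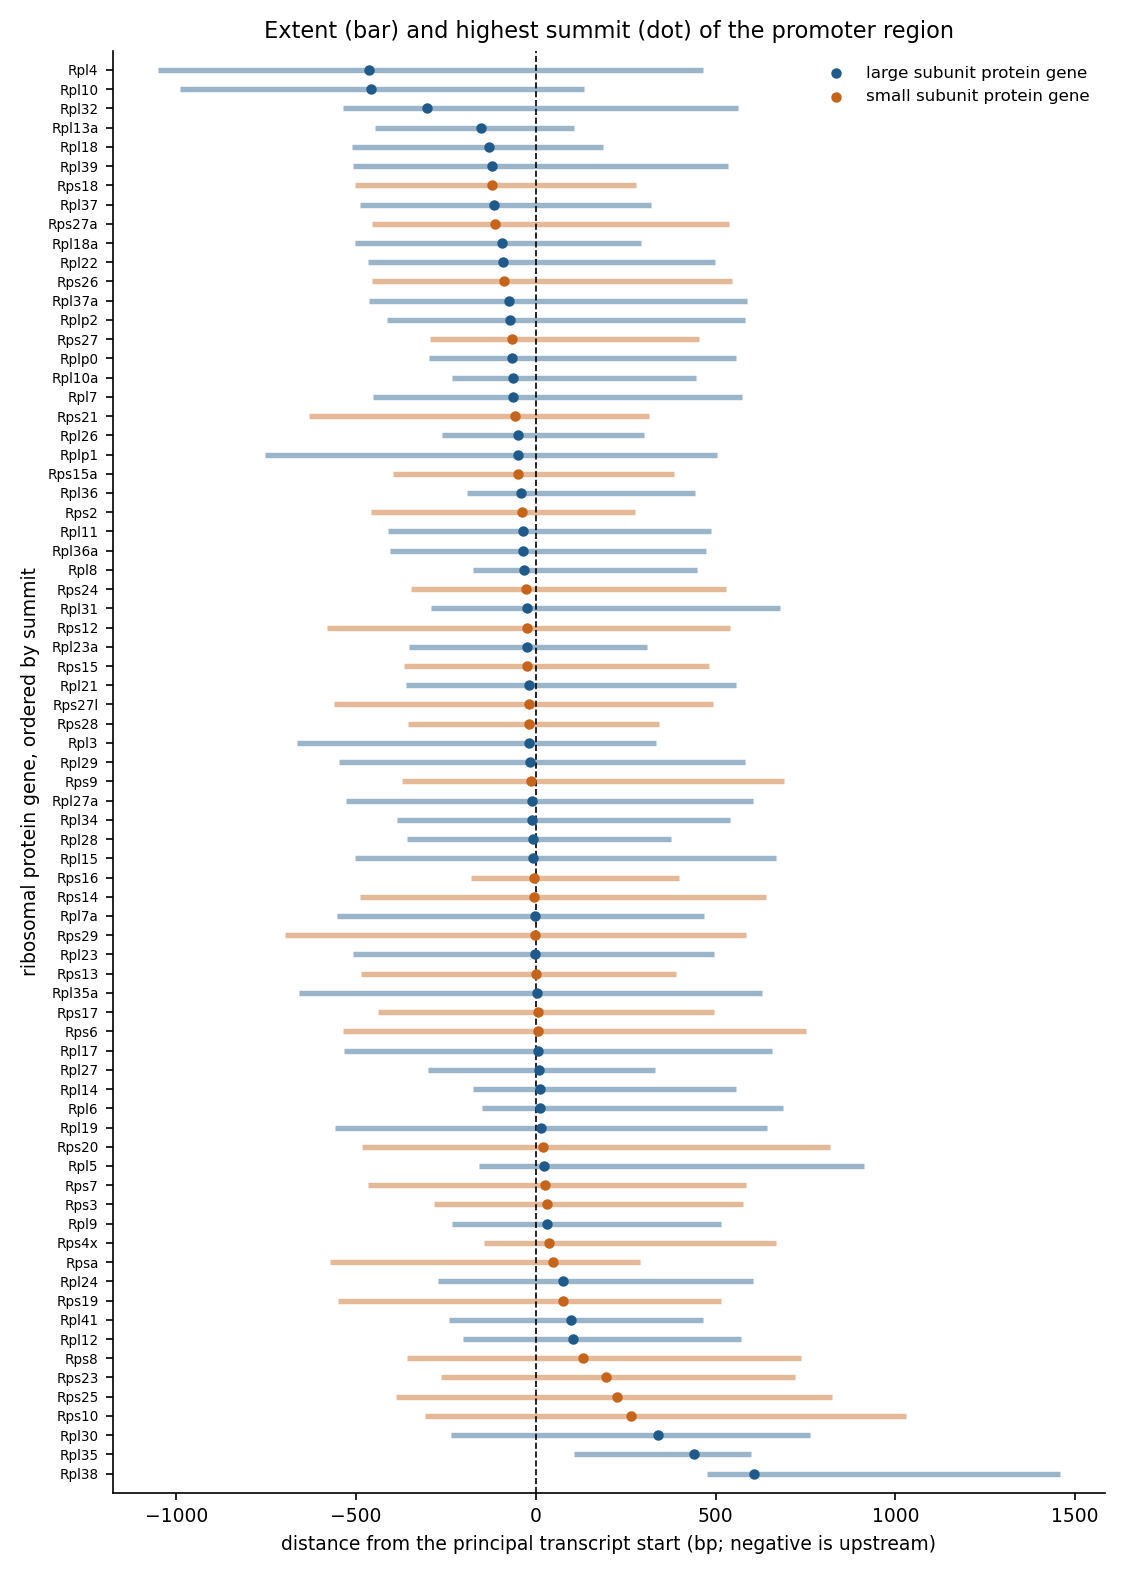
Extent of the highest promoter region (bar) and its highest summit (dot) relative to the principal transcript start (x axis, bp, negative upstream, dashed line at 0) for 74 of the 76 members, ordered by summit from the most upstream at the top. Blue is large subunit and orange small subunit. The dots gather at the start, and the bars of Rpl35 and Rpl38, at the bottom, begin downstream of it.

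The summits farthest from a start were those of Rpl38 (504 bp), Rpl4 (−463 bp), Rpl10 (−458 bp), Rpl35 (441 bp) and Rpl32 (−303 bp). Rpl4 shares a single region of 1515 bp and 7 summits with Zwilch, a mitotic checkpoint gene whose start lies 271 bp away. At Rpl35 the region began 106 bp downstream of the principal GENCODE start. The RefSeq start of Rpl35 lies 493 bp downstream of the GENCODE one, inside the region and 52 bp downstream of its summit. RefSeq starts were found for 60 members. They were the same base as the principal GENCODE start at 14, and by them the median summit of the 56 with a region lay at −39 bp and 54 of 56 highest regions covered the start. The exceptions were Rpl38 and Rpl18, whose RefSeq start lies 2614 bp downstream of the GENCODE one. In both, a second and lower region covered the RefSeq start, with a fold of 8.65 at Rpl38 and 10.2 at Rpl18.

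Paralogs of the set differed in accessibility. Rpl3 had a promoter region with a fold of 18.04, Rpl10 one with 13.7 and Rpl39 one with 16.3. Their paralogs Rpl3l, used in heart and skeletal muscle, and Rpl10l and Rpl39l, used in the testis, had no region within 1000 bp of a start in the thresholded list, the pseudoreplicated list or the ranked list. By contrast Rps27 and its paralog Rps27l, a p53 target, were both open, with 21.2 and 18.1. Rps4x, whose gene lies on the X chromosome, had 18.7. Its relative Rps4l is a processed pseudogene in this annotation, as are Rpl6l and Rpl32l, and none of these 3 overlapped a region.

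The closed paralogs differed in sequence among themselves. The CpG ratio was 0.171 at Rpl3l, 0.550 at Rpl39l and 0.720 at Rpl10l, against 0.790 at Rpl3, 0.607 at Rpl39 and 0.750 at Rpl10. The window of 220 bases held 1 CG pair at Rpl3l and 20 at Rpl3, shown here in capitals in the sense strand.
Rpl3l, chr17:24727620-24727839, plus strand: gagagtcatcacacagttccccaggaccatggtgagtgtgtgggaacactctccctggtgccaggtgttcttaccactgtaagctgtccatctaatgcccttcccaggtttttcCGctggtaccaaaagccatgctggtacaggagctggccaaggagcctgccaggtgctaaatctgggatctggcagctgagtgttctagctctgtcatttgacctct
Rpl3, chr15:80083387-80083606, minus strand: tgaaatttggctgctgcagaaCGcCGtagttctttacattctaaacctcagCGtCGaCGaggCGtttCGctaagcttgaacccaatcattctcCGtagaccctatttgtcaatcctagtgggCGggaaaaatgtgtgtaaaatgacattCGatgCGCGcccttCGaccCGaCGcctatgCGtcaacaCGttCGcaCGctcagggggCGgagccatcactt
Rpl39l, in turn, held 4 matches to the ETS motif in the same window, and Rpl10l 1 match to the ZNF143 motif between 250 bp upstream and 50 bp downstream of its start. Rpl3l lies 3342 bp from the promoter of Ndufb10, a gene of the respiratory chain that had a fold of 5.35.

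Rpl13 was the fourth member without a promoter region, and the case was one of threshold. In the pseudoreplicated and ranked lists it had a region at chr8:123101730-123102890 over its start at position 123102350, with a fold of 5.92 and a −log10 p of 20.4. Its IDR was 0.0725, against a limit in the thresholded list of 0.05. The 2 sets of reads gave −log10 p values of 11.3 and 9.93. Its fold was below that of every member inside the threshold. The CpG ratio of Rpl13 was 0.827, above the median of the set.

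A single region was the most frequent count at a member. By the nearest start within 100 kb, 125 regions were assigned to the 80 members, a mean of 1.56 a gene against 1.25 over all coding genes. All coding genes include many that are not open, since 10861 of 21853 had a promoter region. The mean was also 1.56 in the initiation and elongation factors. It was 1.46 in the proteasome genes, 1.40 in ribosome assembly genes and 1.37 in the mitochondrial ribosomal genes. Exactly 1 was assigned to 39 members (48.75%) and to 28.5% of all coding genes, and 2 or more to 30 members. At least 4 were assigned to 5 members (6.25%) and to 8.72% of all coding genes, and 11 members had 0, of which 7 have a promoter region that lies nearer to the start of another gene. Those 5 were Rpl11 with 7 regions, Rps14 with 6, Rpl34 and Rplp1 with 5 each, and Rpl5 with 4.

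**Figure D3:**
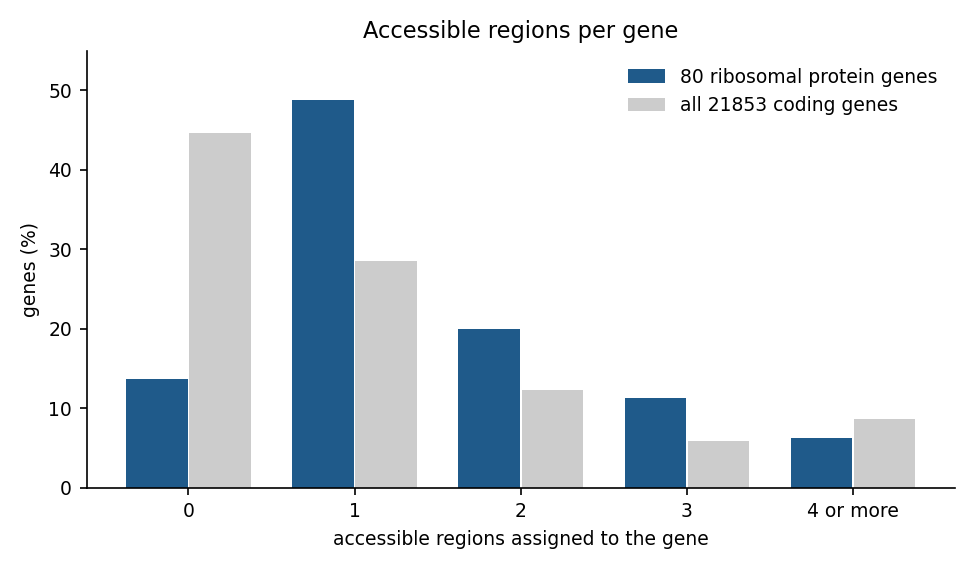
Share of genes (y axis, %) by the number of accessible regions assigned to them (x axis), for the 80 ribosomal protein genes (blue) and all 21853 coding genes (grey). The tallest blue bar is at a single region, with 48.75% against 28.5% of all coding genes.

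Outside the promoter windows of the gene itself, 52 regions were assigned to 28 members. Their median fold was 12.7, against 18.04 for the members' own promoter regions and 13.1 for all 29415 regions, and their median distance was 16684 bp. Of the 52, 39 lay between genes and 1 within the member it was assigned to. A region 10999 bp downstream of a start of Rps14, on the side of Cd74, had a fold of 26.2, above the 16.5 of the highest promoter region of Rps14. A region 6046 bp downstream of a start of Rps13 had 22.7, against 20.8 at its promoter. The 6 regions upstream of Rpl11 lay between −16746 and −42547 bp from its start, with folds between 5.89 and 21.02. Those of Rpl5 lay 20725, 25849 and 31909 bp downstream, all within Fam69a. Assignment by the nearest start does not show which gene such a region acts on.

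Close neighbours shared some of these promoters. At least 1 promoter region of 16 of the 76 members (21.1%) also overlapped the window of another coding gene, against 23.0% of accessible coding genes. At Rpl3 and Rpl41 the shared region was a second and lower one, with folds of 8.72 and 10.4. At Rps10 the other gene was RPS10-NUDT3, a record named after Rps10 itself. Rps28 and Ndufa7 start 10 bp apart, Rpl9 and Lias 53 bp apart, and Rpl15 and Nkiras1 69 bp apart. Among the 60 open members that shared no promoter region, the nearest other gene had a promoter region of its own at 37 (61.7%). Over all coding genes the share with a promoter region was 49.7%. Some open members lay beside closed lineage genes and others beside open genes. Rpl36a had a fold of 21.2 while Btk, the B cell kinase that starts 2514 bp away, had no promoter region. Rps19 was open and Cd79a, a chain of the B cell receptor complex that starts 13010 bp away, was not. Rps26 lies 19244 bp from Ikzf4, which encodes the Treg factor Eos and had a promoter fold of 6.05. Rps14 lies 29252 bp from Cd74, which had a promoter fold of 15.5.

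Many ribosomal protein genes also carry small nucleolar RNAs in their introns, which guide the modification of ribosomal RNA. Of the 80 members, 29 held 56 annotated small nucleolar RNA genes, up to 5 in Rpl4. The 28 of them with a promoter region had a median fold of 16.9, and the 48 other open members had 18.3. Processed pseudogenes named after members were almost all closed. Of 291 such records, 1 (0.344%), Rpl29-ps2, overlapped a region, and that region lay at the promoter of a coding gene. Over all processed pseudogenes the count was 112 of 10236 (1.09%). Short reads from near-identical copies are hard to place, and how the authors treated them is not given in the sources used here.

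Several short motifs were more frequent in the set than in other promoters. Matches were counted from 250 bp upstream to 50 bp downstream of the principal start, on both strands, in 80 member promoters, in 10861 accessible coding promoters and in all 21853 coding promoters. The BANP motif TCTCGCGA was found in 13 members (16.25%), against 2.504% of accessible and 1.39% of all coding promoters. The longer palindrome TCTCGCGAGA was found in 7 members (8.75%), among them Rpl10a, Rpl17, Rpl26, Rpl4, Rps28 and Rps6, against 1.08% of accessible and 0.604% of all coding promoters. BANP is a factor that is known to open CpG island promoters of essential genes when its site is not methylated. The ZNF143 motif ACTACAA was found in 11 members (13.75%), against 4.76% and 3.77%. The ETS motif CCGGAA was found in 36 (45%), against 30.1% and 18.1%. At least 1 of these 3 was present in 49 members (61.25%), against 34.7% of accessible coding promoters. Among the 14 motifs counted, these 3 had the widest gaps above accessible promoters. Their joint share therefore restates those gaps and is no separate result.

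The matches lay close to the start. The 20 BANP matches had a median position of −27 bp (interquartile range −46.5 to −1.5 bp), counted to the centre of the motif. Each longer palindrome matches on both strands and so enters this count once for each strand. The 56 ETS matches had a median of −28 bp and the 12 ZNF143 matches one of −87.5 bp. In the promoters printed above, the palindrome sits at the start in Rps6 and upstream of it in Rpl26 and Rpl10a. The shorter BANP motif TCTCGCGA did not go with height: members with it had a median fold of 18.3 and those without it 18.1.

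Of the other motifs, some had shares above and some below those of accessible promoters. In percentage points the widest gaps among them were at Sp and KLF and at MAZ, both below. The Sp and KLF motif GGGCGG was found in 51.25% of members, against 64.8% of accessible and 45.3% of all coding promoters. Within 150 bp of the summit the gap was smaller, with 64.5% of the members with a region against 68.9% of accessible coding promoters. Around starts, NF-Y (CCAAT) was found in 31.25%, against 39.4% and 38.6%, and MAZ (GGGAGGG) in 15%, against 26.3% and 24.5%. TATAAA was found in 11.25%, against 6.97% and 12.6%. YY1 (AAGATGGC) was found in 6.25%, against 5.07% and 3.07%, and within 150 bp of the summit in 11.8% of the members with a region, against 6.20% of accessible coding promoters. The cAMP-response motif TGACGT was found in 16.25%, against 13.2% and 8.82%, and the E-box CACGTG, which Myc binds, in 11.25%, against 10.2% and 7.71%. NRF1 (GCATGCGC) was found in 5%, against 5.62% and 3.72%. Of motifs bound by factors of T cells and activation, RUNX (TGTGGT) was found in 11.25%, against 12.3% and 14.9%, and AP-1 (TGANTCA) in 5%, against 4.28% and 6.71%, both near the share of accessible promoters. The forkhead motif TGTTTAC, which Foxp3 and its relatives can bind, was found in 1 member (1.25%), Rpl41, against 2.504% and 3.01%. A match is a run of letters and not a measured binding site.

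**Figure D4:**
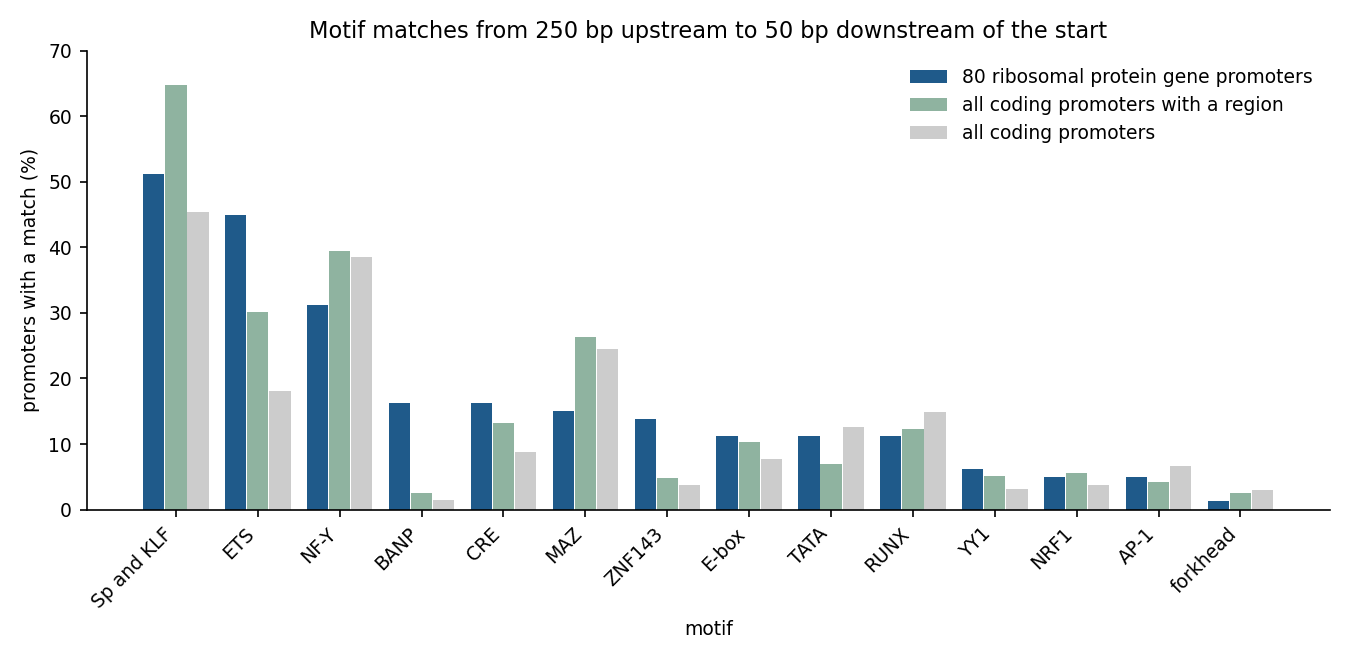
Share of promoters with at least 1 match (y axis, %) for 14 motifs (x axis), in the 80 ribosomal protein gene promoters (blue), in all coding promoters with a region (green) and in all coding promoters (grey). Blue stands above green most clearly for BANP (16.25% against 2.504%), ZNF143 (13.75% against 4.76%) and ETS (45% against 30.1%).

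Pyrimidine runs were frequent in the reference sequence around the start, though seldom at the annotated start base. The principal start was a C in 24 of 80 members (30%), against 17.5% of all coding genes. With RefSeq starts it was a C in 19 of 60 members (31.7%), against 13.9% of RefSeq starts of coding genes. A run of at least 8 C and T that began between 20 bp upstream and 60 bp downstream of the principal start was found in 54 members (67.5%), against 26.2% of accessible and 29.2% of all coding genes. The longest such run had a median of 9 bases in the members and 6 in both other sets. It reached at least 12 bases in 23 members (28.75%), against 6.10% of accessible and 6.72% of all coding genes. Rpl7a had the longest, with 21 bases. Of the 54 runs of at least 8 bases, 18 began within 10 bp of the principal start, and the median first base lay at 22 bp. The window searched was added after the data were seen. It reaches farther downstream than upstream, so a downstream median is partly set by the window, and no positions in other genes are given. In Rps6 the run of 10 bases shown above begins 44 bp downstream of the GENCODE start, and the RefSeq start lies on its second base. Short runs of 5 bases at Rpl10l and 7 at Rpl39l stood beside one of 9 at Rpl3l.

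Other gene sets of the protein factory were open to a like degree. Of 78 mitochondrial ribosomal genes 76 had a promoter region, with a median fold of 18.9, and the exceptions were Mrpl22 and Mrps25. Of 39 proteasome genes 37 had one, with a median of 21.1, and the exceptions were Psma8, used in the testis, and Psmb11, used in the cortex of the thymus. Of 68 initiation and elongation factors 65 had one, with a median of 16.5; the exceptions were Eef1a2, the form of muscle and neurons, Eif4e1b, a germ cell form, and Eif4ebp3. All 20 genes of ribosome assembly had one, with a median of 18.3. All 21 further genes with terminal oligopyrimidine messages had one, with a median of 15.9, among them Eef2 at 9.04 and Eif3h at 25.5. Ribosomal genes whose names fall outside the rule were open at 6 of 7, from Fau, the source of a small-subunit protein, at 9.68 to Rpl22l1 at 22.1, and Rps27rt was not. The share with a pyrimidine run of at least 8 bases was 67.5% in the cytosolic set and 76.2% in the further oligopyrimidine genes, against 47.1% in the initiation and elongation factors, 42.9% in the ribosomal genes outside the rule, 30.8% in the mitochondrial set, 25% in ribosome assembly and 20.5% in the proteasome set. Such runs were not confined to these lists, since 66.7% of the 6 T cell genes and 100% of the 4 myeloid genes had one.

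**Figure D5:**
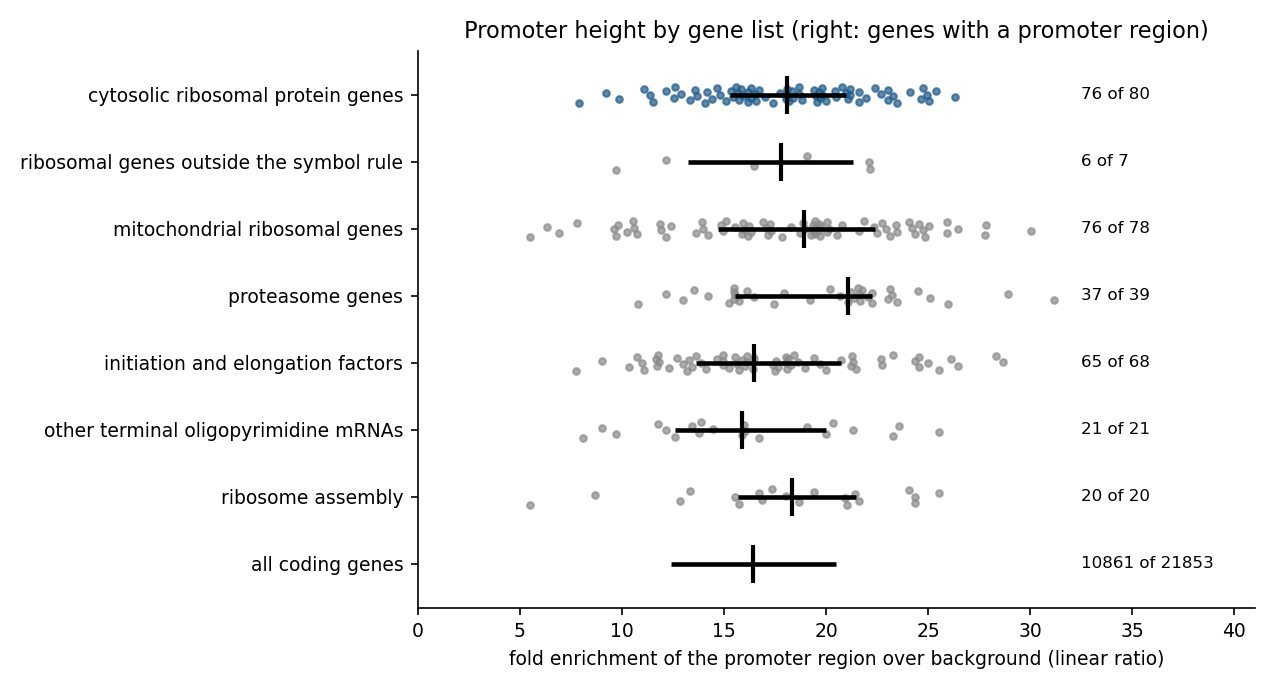
Fold enrichment of the promoter region (x axis, authors' linear ratio) for each gene of 7 lists (dots), with the interquartile range (black bar) and the median (black tick), and the same bar and tick for all coding genes. The number of genes with a promoter region stands at the right. The cytosolic set, in blue, has a median of 18.1 and lies within the range of the other lists.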

How the data were processed

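ATAC-seq data of 2 technical replicates of 1 biological replicate were analysed as 3 deposited peak lists on mm10, taken to pool both libraries. Aligner, caller, filters, Tn5 shift and depth: not given in the sources used here. Each peak has, as the authors deposited it, a summit, a whole-number score, a −log10 p-value and a linear ratio of signal to an unstated background, the fold. That deposited score follows the IDR, and the lowest in the thresholded list, 540, corresponds to an IDR of 0.05. Units were read from the values and the column order. Peaks that overlapped or touched were merged, and the peak of greatest fold gave fold and summit. A local background would make fold depend on the surroundings of a peak.

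Genes, starts and sequences came from GENCODE M21 and GRCm38.p6, with 0 peaks past a chromosome end, and RefSeq starts from the RefSeq promoter table of GRCm38.p6. The principal start was the best APPRIS, CCDS and support-level transcript. CpG was taken within 500 bp of it. Named were members without a region, the 5 highest and 5 lowest folds, the 5 with most regions, the 5 farthest summits, paralog pairs and members of set roles. Some items that this rule names are not reported here, and the plots by gene leave them out. The members, the gene lists and the alternatives were chosen with earlier results of these data known. No test was made. Merging, promoter calls and assignment were tested on simulated data. Tools were Python 3.11.15, numpy 2.4.6, pandas 2.3.3, scipy 1.17.1, pysam 0.24.0 and matplotlib 3.10.9.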

Additional observations from a re-analysis of the deposited data

How the results depend on the processing

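The count of members with a promoter region was 76 or 77 under every alternative tried, among them windows of 500 and 2000 bp, principal starts only, summits inside the window, an IDR limit of 0.01, the upper 50% of peaks by fold and the pseudoreplicated list, which adds Rpl13. The median fold was 9.91 when a region took the mean fold of its peaks, and the regions assigned came to 295 when summits were counted singly. Around summits (150 bp on either side) the motif shares were 56.6% for ETS, 64.5% for Sp and KLF and 0% for forkhead. The YY1 share was 11.8%, against 6.25% around starts. It was still inside the exact binomial interval of 5 matches in 80, and the other 10 also stayed inside theirs. Such intervals treat the members as a random sample, though they are the whole set and both windows are of the same genes. They serve as a yardstick of size and not as a test. The pyrimidine run that holds the principal start base had a median of 0, and 2 measures added after the data were seen had medians of 9 (the longest run that begins between 20 bp before and 60 bp after the start) and 4 (the longest run with a base within 5 bp of it). RefSeq starts, also added after the data were seen, moved the median summit to −39 bp. No paired analysis was possible because there was 1 group. Leaving out a library was not possible from pooled lists. Depth is unknown, so a gene without a region may lie below detection, and members of 1 donor are no replicates.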
